A study of Mus musculus with 19 samples.

Results

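The prostaglandin genes of the mouse ovary examined here are 10 genes, chosen by name: Ptgs1, Ptgs2, Ptges, Ptgis and Ptgds, which code for enzymes that make prostaglandins, Hpgd, which codes for an enzyme that inactivates them, the receptor genes Ptgfr, Ptger2 and Ptger4, and Akr1c18, which codes for the enzyme that inactivates progesterone in the corpus luteum. Each matched 1 entry by symbol among the 36172 genes of the deposited table, and all 10 passed the filter on low counts that left 15518 genes to test. Bulk RNA of the whole ovary was sequenced from females of C57BL/6, an inbred mouse strain, with no treatment or allele in the labels at 3 months (5 libraries), 6 months (5 libraries), 9 months (5 libraries) and 12 months (4 libraries) of age. The labels do not say whether the libraries of an age came from separate mice, so p-values measure spread among libraries that may be technical. They give no stage of the oestrous cycle, no time of day and no batch, and since library numbers follow age, handling order and age cannot be told apart. Library totals ran from 10851519 to 14302207 estimated counts. Levels are given as CPM, the share of a library's counts scaled to a fixed total, after TMM scaling, which adjusts each library total for differences in composition.

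Prostaglandins are made from arachidonic acid, which phospholipases release from membranes. The cyclooxygenases encoded by Ptgs1 and Ptgs2 turn it into the unstable intermediate prostaglandin H, and terminal synthases turn that into prostaglandin E, prostacyclin, prostaglandin D or prostaglandin F. In rodents prostaglandin E acts through the receptor encoded by Ptger2 in expansion of the cumulus and ovulation, and prostaglandin F acts through the receptor encoded by Ptgfr on luteal cells at the end of pregnancy. That signal raises the product of Akr1c18, an aldo-keto reductase that converts progesterone to a form with little progestational activity.

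The start regions of 4 genes are shown because these genes form the 2 pairs whose levels followed each other from library to library, as the values show further on. They are RefSeq sequences of build GRCm38.p6, each of 300 bases from 250 bases before the start site to 50 bases from it, written in the direction of the gene. Capitals mark matches on either strand to AGGTCA, the core read by many nuclear receptors, GGGCGG, the GC box, CACGTG, the E box, TGACG, the core of the cyclic AMP response element, or TATAAA, the TATA box. Ptgfr lies at chr3:151837479-151837778 on the minus strand, Akr1c18 at chr13:4150597-4150896 on the minus strand, Ptgs2 at chr1:150099781-150100080 on the plus strand and Ptger4 at chr15:5244138-5244437 on the minus strand.
Ptgfr: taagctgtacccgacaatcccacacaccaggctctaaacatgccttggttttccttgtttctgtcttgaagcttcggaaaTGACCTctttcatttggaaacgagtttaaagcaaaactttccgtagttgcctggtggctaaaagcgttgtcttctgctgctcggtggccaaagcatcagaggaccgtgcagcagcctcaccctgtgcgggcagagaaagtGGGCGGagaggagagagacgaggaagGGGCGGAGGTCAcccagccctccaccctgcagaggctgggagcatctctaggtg
Akr1c18: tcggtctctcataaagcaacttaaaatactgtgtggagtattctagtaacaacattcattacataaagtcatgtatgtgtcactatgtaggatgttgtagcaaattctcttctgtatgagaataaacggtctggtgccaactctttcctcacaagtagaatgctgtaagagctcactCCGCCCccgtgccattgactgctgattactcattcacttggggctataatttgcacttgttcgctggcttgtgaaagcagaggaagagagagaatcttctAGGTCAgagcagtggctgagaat
Ptgs2: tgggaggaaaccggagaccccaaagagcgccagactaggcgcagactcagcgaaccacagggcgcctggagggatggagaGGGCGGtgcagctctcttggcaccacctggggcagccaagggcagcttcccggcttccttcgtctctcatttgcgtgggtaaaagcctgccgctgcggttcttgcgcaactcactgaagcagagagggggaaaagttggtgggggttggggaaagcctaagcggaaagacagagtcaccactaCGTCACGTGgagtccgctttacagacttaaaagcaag
Ptger4: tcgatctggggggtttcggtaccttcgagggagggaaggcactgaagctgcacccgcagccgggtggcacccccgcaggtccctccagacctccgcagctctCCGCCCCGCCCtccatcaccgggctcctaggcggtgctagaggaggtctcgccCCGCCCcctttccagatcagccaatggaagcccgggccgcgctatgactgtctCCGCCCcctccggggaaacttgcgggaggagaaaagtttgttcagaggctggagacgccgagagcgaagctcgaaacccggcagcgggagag

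Entries were found for 9 of the 10 genes, all but Ptgis. AGGTCA was found in 2 of these 9 regions, those of Ptgfr and Akr1c18, and in 16% of the 27025 start regions of the whole table. In the Ptgfr region it lay at base 253 on the strand of the gene and at base 81 on the other strand, and in the Akr1c18 region at base 278 on the strand of the gene, counting from 1 at the 5′ end. GGGCGG was found in 6 of the 9 regions and in 35.9% of all of them, with matches at 4 places in the Ptger4 region, of which those at bases 103 and 108 overlap by 1 base. In the Ptgfr region the GGGCGG at base 247 ends where the AGGTCA at base 253 begins. CACGTG was found at base 267 of the Ptgs2 region alone among the 9, and in 7.24% of all regions. TGACG was read there on the other strand from base 264, overlapping the CACGTG, and was found in 21% of all regions. TATAAA was found in 1 of the 9 regions, that of Hpgd, and in 14.2% of all. These matches describe letters in the windows and say nothing of binding.

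Levels per kilobase of exon were taken from the mean of the 4 age means. Akr1c18 had the highest at 134 CPM per kb, a value that includes 1 library at 1472 CPM. Next came Ptgfr at 40.3, Hpgd at 37.2, Ptges at 36.2 and Ptgis at 30.5 CPM per kb. Ptgs1 stood at 6.63, Ptger4 at 3.9, Ptger2 at 3.76, Ptgds at 3.11 and Ptgs2 at 1.02 CPM per kb. Akr1c18 and Ptgfr were also the members that differed most between libraries of 1 age. The within-age SD of the log2 level was 1.92 for Akr1c18, and 6 of the 15518 genes tested had a larger one. It was 1.22 for Ptgfr, with 100 genes larger, and 0.75 for Ptgs2, with 789 genes larger. The remaining 7 members had within-age SDs between 0.17 (Ptgis) and 0.42 (Ptges), against a median of 0.2 over all genes tested. Ptgs2 was the most thinly counted member, with 15.9 to 108.9 estimated counts per library.

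**Figure D1:**
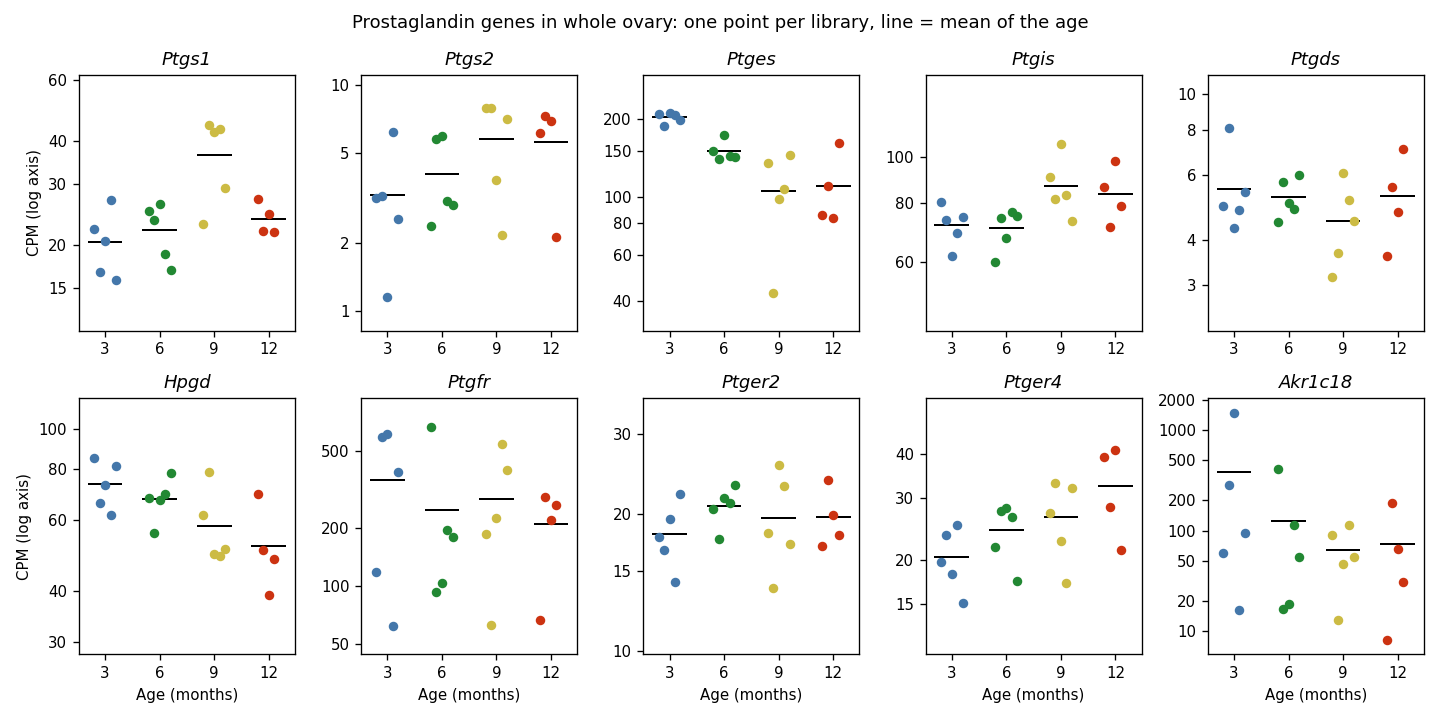
Level of each of the 10 genes in CPM on a log axis against age in months, with 1 point per library and a line at the mean of each age (5, 5, 5 and 4 libraries). Ptges lies between 83.2 and 162 CPM at 12 months, against 188 to 211 CPM at 3 months, while the Akr1c18 points spread from 8.29 to 1472 CPM.

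Comparing 12 with 3 months, 3 of the 10 members passed the threshold of 0.05 on the adjusted p of edgeR's quasi-likelihood test with Benjamini-Hochberg adjustment over all 15518 genes: Ptger4 rose, and Ptges and Hpgd fell. Over all genes tested 22.4% passed, 10.9% higher and 11.5% lower, so 3 of 10 is near the background. The median log2 change was 0.02 over the 10 members and 0.02 over all genes. Comparing 9 with 3 months, 2 of 10 passed, Ptgs1 higher and Ptges lower, against a background of 25% (11.3% higher and 13.6% lower), and the median log2 change was -0.09 over the members and 0.01 over all genes. The libraries did not overlap for 1 member, Ptges, in each of these comparisons, where 16.5% of all genes at 12 months and 14.9% at 9 months did not overlap with those at 3 months. Both comparisons use the same 3 month libraries.

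Along a linear trend in age, 4 of 10 members passed, Ptger4 and Ptgis higher and Ptges and Hpgd lower with age, where 29.5% of all genes did (14.7% higher and 14.8% lower). In a test for any difference among the 4 ages, Ptgs1 and Ptges passed, 2 of 10, where 29% of all genes did. Comparing 6 with 3 months, 0 of 10 members passed edgeR's test and 0 had an unadjusted p under 0.05. The background was 0.0193% passing and 9.85% under the unadjusted threshold. DESeq2, limma-voom and limma-trend also called 0 members there, and 47, 174 and 0 of the 15518 genes. Comparing 12 with 9 months, 0 of 10 members and 0% of all genes passed edgeR's test. Of the members 1, Ptgs1, had an unadjusted p under 0.05, as did 13.9% of all genes. Each of the other 3 tools called 0 members, where DESeq2 called 252 of the 15518 genes and limma-voom and limma-trend called 0. The libraries of these ages overlapped for all 10 members, and for all but 2.27% of all genes.

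**Figure D2:**
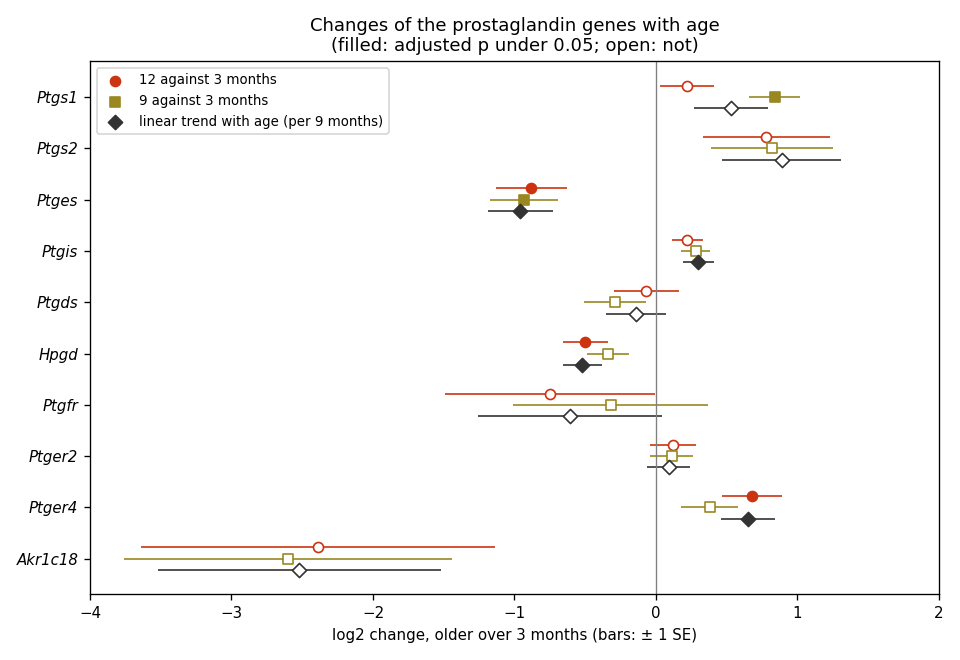
Log2 change of each of the 10 genes at 12 months over 3 months (circles), at 9 months over 3 months (squares) and along the linear trend over 9 months (diamonds), with bars of 1 standard error of the fit. Filled points passed an adjusted p of 0.05, and the widest bars are those of Akr1c18, at 1.25 for 12 months and 1.16 for 9 months.

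Ptges, on chromosome 2 from 30889471 to 30931020 (GRCm38), codes for the inducible microsomal synthase of prostaglandin E and was the member with the lowest adjusted p along the trend. At 3 months its levels were 209, 188, 211, 207 and 198 CPM, at 6 months 151, 140.4, 173, 144 and 143 CPM, at 9 months 136, 43.1, 98.2, 108 and 145 CPM, and at 12 months 85.4, 110.2, 83.2 and 162 CPM. Every library of the 3 older ages lay below every library at 3 months, and the 6, 9 and 12 month libraries overlapped each other. Ptges averaged 110.2 ± 36.7 CPM at 12 months (SD, n = 4), against 203 ± 9.52 CPM at 3 months (SD, n = 5), a log2 change of -0.88 ± 0.25 (SE of the fit, edgeR adjusted p = 0.0205). At 9 months it averaged 106 ± 40.2 CPM (SD, n = 5), a log2 change of -0.93 ± 0.24 over 3 months (SE, edgeR adjusted p = 0.00876). At 6 months the mean was 150.2 ± 13.2 CPM (SD, n = 5) and the log2 change of -0.43 ± 0.23 over 3 months did not pass (edgeR adjusted p = 0.561), although the libraries did not overlap. Such non-overlap held for 3.64% of all genes. The trend was -0.96 ± 0.23 in log2 over 9 months (SE, edgeR adjusted p = 0.00476). In bulk tissue, fewer cells of a type and less RNA per cell cannot be told apart.

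The 12 month call for Ptges was lost without 12 months replicate 1 (log2 -0.77, edgeR adjusted p = 0.0629) or 12 months replicate 3 (-0.76, 0.0768). It was also lost with the mean log2 CPM of the oviduct markers as a covariate (-0.67, edgeR adjusted p = 0.129). The trend stayed past the threshold under each of the 30 alternatives run. Over the 19 libraries the genes most like Ptges were Astl (Pearson r 0.94), which codes for an egg protease, Fbn2 (0.94), which codes for an extracellular fibrillin, and Bcl2l10 (0.94), an oocyte-expressed relative of Bcl2. Levels of oocyte markers also fell with age. Of 6 such markers (Gdf9, Zp3, Zp2, Bmp15, Figla and Oosp1) 5 fell at 12 months and 6 fell at 9 months, both against 3 months. Their summed level ran from 37.9 to 91.6 CPM at 12 months, from 11.2 to 90.9 CPM at 9 months and from 204 to 312 CPM at 3 months, and none was at 0 in all libraries. Within 6 months the sum did not follow Ptges. It was 159, 149.8, 111, 129.8 and 227 CPM in replicates 1 to 5, lowest in replicate 3, where Ptges was highest. Of 5 theca markers 4 fell at 12 months, with sums of 179.7 to 237 CPM at 12 months and 579.9 to 915 CPM at 3 months. The part of these cells in the Ptges result was not tested. Ptges overlaps the predicted genes Gm13400 and Gm52550 in the annotation, and reads shared with them are uncertain.

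Ptgs1, on chromosome 2 from 36216742 to 36258593, codes for the constitutively expressed cyclooxygenase, and it was high in part of the 9 month libraries. Its levels at 9 months were 23, 44.5, 42.6, 43.3 and 29.3 CPM, against 22.3, 16.7, 20.5, 27 and 15.8 CPM at 3 months. Replicates 2, 3 and 4 at 9 months lay above every other library of the series, replicate 5 lay above the 3 month libraries and replicate 1 lay within their range. At 6 months the levels were 25.1, 23.7, 26.2, 18.8 and 16.9 CPM, and at 12 months 27.1, 21.9, 24.6 and 21.8 CPM. These overlapped the 3 month range. Ptgs1 averaged 36.5 ± 9.75 CPM at 9 months and 20.5 ± 4.53 CPM at 3 months (SD, n = 5 each), a log2 change of 0.84 ± 0.18 (SE, edgeR adjusted p = 0.00298). At 12 months the mean was 23.8 ± 2.51 CPM (SD, n = 4), with log2 changes of 0.22 ± 0.19 over 3 months (SE, edgeR adjusted p = 0.443) and -0.62 ± 0.19 over 9 months (SE, edgeR adjusted p = 0.18), neither past the threshold.

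The same 3 libraries at 9 months, replicates 2, 3 and 4, had 184, 247 and 167 CPM of Adamts1, a protease gene induced at ovulation, and 129, 150.4 and 146 CPM of Runx1, a transcription factor gene also induced then. In replicates 1 and 5 at 9 months Adamts1 stood at 85.2 and 70.9 CPM and Runx1 at 51 and 50.9 CPM. At 3 months Adamts1 lay between 37.1 and 68.5 CPM and Runx1 between 50.9 and 73 CPM. The other 3 ovulation genes called at 9 over 3 months did not single out these libraries. In replicates 1 to 5 at 9 months Cebpb stood at 40.4, 39.7, 47.5, 46.5 and 41.5 CPM, lowest in replicate 2. Edn2 stood there at 0.947, 1.3, 1.98, 2.73 and 1.37 CPM, lower in replicate 2 than in replicate 5. Rgs2, which was lower at 9 than at 3 months, stood at 181, 179, 249, 239.8 and 195 CPM. The tested ovulation genes not called there went both ways. Pgr, at 122, 76.8, 40.5, 24.3 and 99.9 CPM, was lower in replicates 2, 3 and 4 than in 1 and 5. So was Has2, at 1.42, 0.864, 0.456, 0.312 and 1.75 CPM. Ereg, at 1.74, 3.1, 3.65, 4.52 and 1.75 CPM, was higher in them, as was Btc, at 3, 5.62, 4.26, 3.74 and 2.13 CPM. Tnfaip6, Ptx3 and Areg held neither order. Over the 19 libraries the genes most like Ptgs1 were Sord (r 0.89), which codes for sorbitol dehydrogenase, Tinagl1 (0.88) and Adamts1 (0.88). Transcripts of the liver gene Alb were at 44, 109, 362, 16.2 and 3.04 CPM at 9 months, against 0.291 to 1.02 CPM at 3 months. Leaving out the libraries over 10 CPM of Alb, a limit chosen after seeing the data, keeps 1 library at 9 months, and the log2 change of Ptgs1 was then 0.52 (edgeR adjusted p = 0.445) and that of Ptges -0.48 (0.522). The lone library is there assumed to vary like those of other ages. Platelets also express Ptgs1. Of the 5 platelet markers 3 were tested and 1 rose at 9 months, with sums of 14.2 to 22.5 CPM at 9 months and 10 to 16.8 CPM at 3 months. Endothelium markers rose at 9 months in 6 of 6, with sums of 399.9 to 467 CPM at 9 months and 276 to 304 CPM at 3 months, which did not overlap, and none was at 0. Smooth muscle markers rose in 4 of 5 tested, with sums of 1749 to 3229 CPM at 9 months and 1078 to 1689 CPM at 3 months. Mast cell markers rose in 5 of 6 tested, with sums of 146 to 268 CPM at 9 months and 143 to 325 CPM at 3 months. Most of each sum was Hdc, which did not rise and averaged 164 CPM at 9 months and 189.6 CPM at 3 months. Of those that rose, Cpa3 averaged 13.4 CPM at 9 months and 2.35 CPM at 3 months. Means at 9 and 3 months were 13.8 and 3.04 CPM for Cma1 and 13.6 and 2.73 CPM for Tpsb2. Macrophage markers rose in 5 of 7, with sums of 266 to 493 CPM at 9 months and 235 to 328 CPM at 3 months. The part of any of these cells or of liver tissue in the Ptgs1 result was not tested.

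Ptgs2, on chromosome 1 from 150100031 to 150108234, codes for the inducible cyclooxygenase. It had 3.15, 3.21, 1.15, 6.2 and 2.55 CPM at 3 months, 2.38, 5.77, 5.93, 3.05 and 2.93 CPM at 6 months, 7.89, 7.85, 3.8, 2.18 and 7.08 CPM at 9 months, and 6.1, 7.27, 6.9 and 2.12 CPM at 12 months. The ages overlapped, and the lowest library of an age stood between 1.15 and 2.38 CPM and the highest between 5.93 and 7.89 CPM. Ptgs2 averaged 5.6 ± 2.37 CPM at 12 months (SD, n = 4), against 3.25 ± 1.84 CPM at 3 months (SD, n = 5), a log2 change of 0.78 ± 0.45 that did not pass (edgeR adjusted p = 0.226). At 9 months the mean was 5.76 ± 2.61 CPM (SD, n = 5) and the log2 change 0.82 ± 0.43 (SE, edgeR adjusted p = 0.171). Its trend, 0.89 ± 0.42 in log2 over 9 months, did not pass either (edgeR adjusted p = 0.118). The trend passed without 3 months replicate 4 (log2 1.2, edgeR adjusted p = 0.0459) and without 12 months replicate 4 (1.12, 0.0374). It also passed with the mean log2 CPM of the corpus luteum markers as a covariate (1, edgeR adjusted p = 0.0487). With that covariate the 9 month change also passed (1.2, edgeR adjusted p = 0.0157).

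Among the other synthases, Ptgis, on chromosome 2 from 167203194 to 167252150 and coding for prostacyclin synthase, varied least between libraries of an age. Its mean level was 71.9 ± 7 CPM at 3 months, 70.6 ± 6.9 CPM at 6 months and 87.2 ± 12.9 CPM at 9 months (SD, n = 5 each), and 83.7 ± 11.5 CPM at 12 months (SD, n = 4), with overlapping ranges. Its trend of 0.3 ± 0.11 in log2 over 9 months passed at an edgeR adjusted p of 0.0462 and did not pass in 17 of the 30 alternatives, among them leaving out 1 library at a time for 13 of the 19 libraries (0.26 to 0.37 over the 19 runs). At 12 months over 3 months the log2 change was 0.22 ± 0.11 (edgeR adjusted p = 0.157), and at 9 months over 3 months 0.28 ± 0.1 (edgeR adjusted p = 0.056). The 9 month change passed in 8 of the 31 alternatives, with DESeq2 (0.28, adjusted p = 0.0397), limma-voom (0.3, 0.0359), the corpus luteum covariate in edgeR (0.31, 0.036), and in edgeR without 3 months replicate 1 (0.33, 0.0367), 6 months replicate 1 (0.29, 0.0396), 9 months replicate 5 (0.35, 0.0173), 12 months replicate 2 (0.29, 0.0353) or 12 months replicate 3 (0.29, 0.0357). Tagln, which codes for a smooth muscle actin-binding protein, was among the 3 genes most like Ptgis (r 0.85), after Ube2r2 (0.88) and before Il3ra (0.84). Of the 6 smooth muscle markers 5 were tested and 4 rose at 12 months over 3 months, with sums of 1623 to 3535 CPM at 12 months and 1078 to 1689 CPM at 3 months. Acta2, a defining marker, was listed at 0 in all 19 libraries. The part of smooth muscle in the Ptgis result was not tested, and reads shared with the overlapping predicted gene Gm52569 are uncertain.

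Ptgds, on chromosome 2 from 25466709 to 25470110 and coding for the lipocalin type of prostaglandin D synthase, was a low gene, at 3.16 to 8.07 CPM over all libraries. It averaged 5.26 ± 1.48 CPM at 12 months (SD, n = 4), against 5.51 ± 1.48 CPM at 3 months (SD, n = 5), a log2 change of -0.07 ± 0.23 (edgeR adjusted p = 0.868). Leaving out 3 months replicate 2, its highest library, turned that change to 0.11, and leaving out 12 months replicate 1 turned it to 0.08.

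Hpgd, on chromosome 8 from 56294552 to 56321046, codes for the dehydrogenase that inactivates prostaglandins E and F by oxidation. Its levels were 84.9, 66, 72.9, 61.5 and 81.2 CPM at 3 months, 67.9, 55.5, 67.1, 69.4 and 78 CPM at 6 months, 61.5, 78.3, 49.3, 48.8 and 50.8 CPM at 9 months, and 69.5, 50.5, 39.3 and 48 CPM at 12 months. Of the 4 libraries at 12 months 3 lay below every 3 month library, and replicate 1 lay within their range. Hpgd fell to 51.8 ± 12.7 CPM at 12 months (SD, n = 4), against 73.3 ± 9.86 CPM at 3 months (SD, n = 5), a log2 change of -0.5 ± 0.16 (SE, edgeR adjusted p = 0.0326). The trend was -0.52 ± 0.14 over 9 months (SE, edgeR adjusted p = 0.0108), and at 9 months the log2 change of -0.34 ± 0.15 over 3 months did not pass (edgeR adjusted p = 0.101). The 9 month change passed by limma-voom (-0.44, adjusted p = 0.0276), and by edgeR without 9 months replicate 2 (-0.47, 0.0271) or without the 3 libraries over 5 CPM of the lymph node gene Cr2 (-0.55, 0.0218). The 12 month call was lost in the runs without 3 months replicates 1 (log2 -0.44, adjusted p = 0.0758), 3 (-0.5, 0.0557) or 5 (-0.46, 0.0713) and without 12 months replicates 2 (-0.49, 0.062), 3 (-0.39, 0.119) or 4 (-0.47, 0.0641), each by the same edgeR test. With the oviduct markers as a covariate it was -0.56 (edgeR adjusted p = 0.0615). The trend passed in each run that left out 1 library. The genes most like Hpgd were Nadkd1 (r 0.85), Zfp60 (0.84) and Rbpj (0.84), the last a DNA-binding effector of Notch signalling.

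Among the prostaglandin E receptors, Ptger4 codes for a prostaglandin E receptor and Ptger2 for another, and both raise cyclic AMP. Ptger4, on chromosome 15 from 5233399 to 5244187, had 19.8, 23.5, 18.2, 25.1 and 15.1 CPM at 3 months, 21.8, 27.6, 28.2, 26.5 and 17.4 CPM at 6 months, 27.3, 33.1, 22.7, 17.2 and 32.1 CPM at 9 months, and 39.4, 28.4, 41.2 and 21.4 CPM at 12 months. Replicates 1, 2 and 3 at 12 months lay above every 3 month library, and replicate 4 lay within their range. Ptger4 averaged 32.6 ± 9.39 CPM at 12 months (SD, n = 4), against 20.3 ± 4.05 CPM at 3 months (SD, n = 5), a log2 change of 0.68 ± 0.21 (SE, edgeR adjusted p = 0.0296). Its trend was 0.65 ± 0.19 over 9 months (SE, edgeR adjusted p = 0.0162). At 9 months the log2 change over 3 months was 0.38 ± 0.2 and did not pass (edgeR adjusted p = 0.179). With the corpus luteum markers as a covariate that change was 0.51 and passed (edgeR adjusted p = 0.0434).

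The 12 month call for Ptger4 was lost without 3 months replicates 1 (log2 0.67, adjusted p = 0.0536), 3 (0.64, 0.0643) or 5 (0.59, 0.0727) and without 12 months replicates 1 (0.57, 0.088) or 3 (0.55, 0.112), by the same edgeR test. Limma-trend on the authors' deposited log2 values gave 0.66 with an adjusted p of 0.0558. Without 12 months replicate 3 the trend was 0.54 (edgeR adjusted p = 0.0527). With the oviduct markers as a covariate the 12 month change was 0.45 (edgeR adjusted p = 0.18) and the trend 0.48 (0.0607). Of the 5 oviduct markers, Ovgp1, Foxj1, Tekt4, Dynlrb2 and Sec14l3, 2 rose at 12 months, and the summed level ran from 2465 to 5376 CPM at 12 months and from 1932 to 3074 CPM at 3 months, with none at 0. The part of oviduct tissue in the Ptger4 result was not tested. The genes most like Ptger4 were Cbs (r 0.94), which codes for cystathionine beta-synthase, Tmem50b (0.93) and Gria1 (0.93), which codes for a glutamate receptor subunit.

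Ptger2, on chromosome 14 from 44988111 to 45003820, ran from 13.8 to 25.6 CPM over all libraries. It averaged 19.7 ± 2.99 CPM at 12 months (SD, n = 4), against 18.1 ± 2.95 CPM at 3 months (SD, n = 5), a log2 change of 0.12 ± 0.16 (edgeR adjusted p = 0.619), and its trend of 0.09 ± 0.15 did not pass (edgeR adjusted p = 0.703). Leaving out 9 months replicate 3 turned its log2 change at 9 months over 3 months, 0.11 ± 0.15 (SE, edgeR adjusted p = 0.621), to -0.01.

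Ptgfr, on chromosome 3 from 151798610 to 151837528, codes for the receptor of prostaglandin F. Its levels were 118, 586, 612, 62 and 389.6 CPM at 3 months, 664, 92.5, 103, 194 and 179 CPM at 6 months, 186, 62.9, 224, 540.3 and 398 CPM at 9 months, and 66.8, 289, 219 and 263 CPM at 12 months. Each age held low and high libraries, and every pair of ages overlapped. Ptgfr averaged 209.5 ± 99.4 CPM at 12 months (SD, n = 4), against 353 ± 256 CPM at 3 months (SD, n = 5), a log2 change of -0.75 ± 0.74 (SE, edgeR adjusted p = 0.496), and none of its other comparisons or its trend passed. At 9 months over 3 months it was -0.32 ± 0.69 (SE, edgeR adjusted p = 0.771), 0.15 without the libraries over 5 CPM of the lymph node gene Cr2 and 0.17 without those over 10 CPM of Alb.

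Akr1c18 had 59.8, 282, 1472, 16.2 and 95.7 CPM at 3 months, 412, 16.5, 18.8, 115 and 55.1 CPM at 6 months, 91, 12.9, 46.3, 114 and 54.3 CPM at 9 months, and 8.29, 189, 65.8 and 30.9 CPM at 12 months. Its highest library stood 178 times over its lowest, and the lowest library of each age lay between 8.29 and 16.5 CPM. Akr1c18 averaged 73.4 ± 80.4 CPM at 12 months (SD, n = 4), against 385 ± 616 CPM at 3 months (SD, n = 5), a log2 change of -2.39 ± 1.25 that did not pass (edgeR adjusted p = 0.178). At 9 months the mean was 63.7 ± 39.5 CPM (SD, n = 5), with a log2 change of -2.6 ± 1.16 over 3 months (SE, edgeR adjusted p = 0.11), and the trend of -2.52 ± 1 over 9 months did not pass (edgeR adjusted p = 0.0637). Without 3 months replicate 3, the library at 1472 CPM, these were -0.63 (edgeR adjusted p = 0.722), -0.82 (0.602) and -0.89 (0.525). The trend passed without 3 months replicate 4 (-2.73, edgeR adjusted p = 0.0414), without 12 months replicate 2 (-3.5, 0.0243), without the libraries over 5 CPM of Cr2 (-3.43, 0.05 after rounding up) and by DESeq2 (-2.5, 0.0482), which also called the 9 month change (-2.59, 0.0482). Akr1c18 lies on chromosome 13 from 4132615 to 4150646 in a cluster of related Akr1c genes, and its counts are uncertain as far as reads were shared with them.

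Over the 19 libraries, 45 pairs of members were correlated on log2 CPM with permutation tests of 100000 resamples, 2-sided, with Benjamini-Hochberg adjustment over the 45 pairs. By Pearson's r 3 pairs passed an adjusted p of 0.05. Ptgfr and Akr1c18 varied together, with r 0.86 (permutation p = 1e-05, the smallest these permutations can give, adjusted p = 0.00045) and Spearman's rho 0.83 (permutation p = 4e-05, adjusted p = 0.0009). Within ages, on deviations from the age means, r was 0.88 (permutation p = 1e-05, adjusted p = 0.00045), and in each age alone, as a description of 4 or 5 libraries, it was 0.89, 0.97, 0.85 and 0.85 at 3, 6, 9 and 12 months. Without the 2 libraries farthest from the median of Ptgfr it was 0.83. The relation thus held within ages. The library highest in Ptgfr at 6 months, replicate 1 at 664 CPM, was also the highest in Akr1c18 at 412 CPM, and the library lowest in Ptgfr at 12 months, replicate 1 at 66.8 CPM, was the lowest in Akr1c18 at 8.29 CPM.

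**Figure D3:**
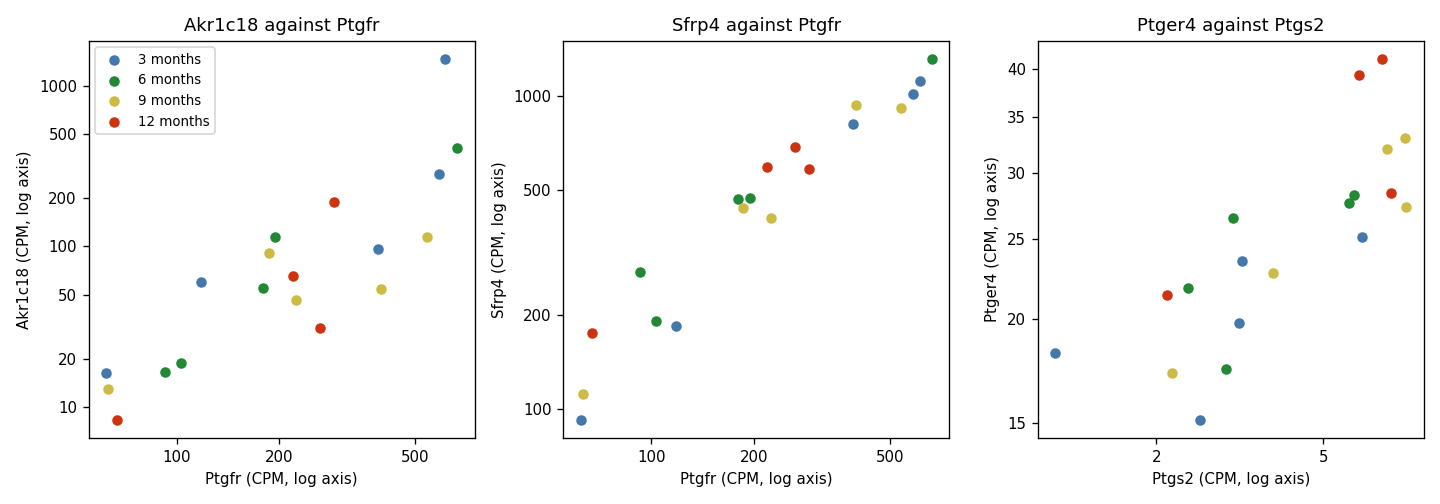
Levels in CPM on log axes of Akr1c18 against Ptgfr, Sfrp4 against Ptgfr and Ptger4 against Ptgs2, with 1 point for each of the 19 libraries, coloured by age. Akr1c18 follows Ptgfr with r 0.86, Sfrp4 follows it with r 0.97 and Ptger4 follows Ptgs2 with r 0.8, and each panel holds low and high libraries of several ages.

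Ptgs2 and Ptger4 also varied together, with r 0.8 (permutation p = 5e-05, adjusted p = 0.00112) and rho 0.82 (permutation p = 4e-05, adjusted p = 0.0009). Within ages r was 0.78 (permutation p = 0.00076, adjusted p = 0.0171), and without the 2 libraries farthest from the median of Ptgs2 it was 0.82. Ptgs1 and Ptges had r -0.64 (permutation p = 0.0031, adjusted p = 0.0465) and rho -0.53 (permutation p = 0.0211, adjusted p = 0.172). Within ages their r was -0.41 (permutation p = 0.193, adjusted p = 0.423), which did not pass. In each age alone, as a description of 4 or 5 libraries, r was 0.7, 0.61, -0.67 and -0.79 at 3, 6, 9 and 12 months. Over all ages without the 2 libraries farthest from the median of Ptgs1 it was -0.45. Ptgs2 against Ptgfr had r -0.61 (permutation p = 0.00614, adjusted p = 0.0553) and Ptgs2 against Akr1c18 had r -0.61 (permutation p = 0.005, adjusted p = 0.0553), neither past the threshold. By rho, Ptges and Ptgis also passed, with rho -0.65 (permutation p = 0.00304, adjusted p = 0.0456), r -0.53 (permutation p = 0.0198, adjusted p = 0.127) and a within-age r of -0.2 (permutation p = 0.533, adjusted p = 0.711).

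**Figure D4:**
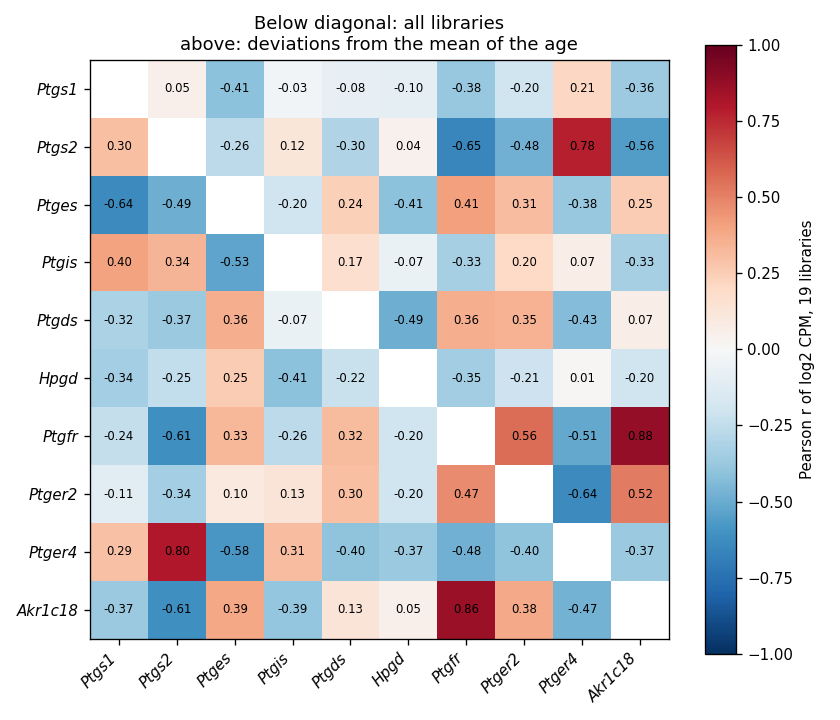
Pearson's r of log2 CPM for each pair of the 10 genes over the 19 libraries (below the diagonal) and of the deviations from the age means (above it), as a colour scale. Below the diagonal the strongest positive values are those of Ptgfr with Akr1c18 (0.86) and Ptgs2 with Ptger4 (0.8), and the strongest negative one is that of Ptgs1 with Ptges (-0.64).

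Genes outside the list followed these pairs closely, as a description over 19 libraries that share library preparation and depth. Those most like Ptgfr were Sfrp4 (r 0.97), which codes for a secreted Wnt-binding protein, ran from 92.1 to 1314 CPM and is itself 1 of the 10 corpus luteum markers used here, Ephx2 (0.94), which codes for soluble epoxide hydrolase, and Wisp2 (0.94), a secreted matricellular gene. Those most like Akr1c18 were Onecut2 (0.93), a homeobox transcription factor gene, Cdkn2b (0.87), a cell cycle inhibitor gene, and Inpp5j (0.86). Those most like Ptgs2 were Bhlhe22 (0.92), Gcnt3 (0.91), which codes for a mucin-type glycosyltransferase, and Tmem50b (0.91), which was also among the 3 most like Ptger4. Lower likeness was found for Ptgds (Lepre1 0.82, Abhd8 0.81, Hira 0.78) and Ptger2 (Stra6 0.71, Nrd1 0.7, Hip1 0.68). Of the 10 corpus luteum markers 1 rose at 12 months over 3 months. Their summed level ran from 6025 to 13652 CPM at 12 months and from 6327 to 10304 CPM at 3 months, with none at 0. Within ages that sum, which includes Sfrp4, moved with Ptgfr in part. In replicates 1 to 5 it was 6522, 10304, 9736, 6327 and 8245 CPM at 3 months, where the 3 libraries with the most Ptgfr also had the 3 highest sums, and 7867, 6262, 10463, 13815 and 12772 CPM at 9 months, where both followed the same order. At 6 months it was 9824, 8727, 7549, 8548 and 8079.8 CPM, highest in replicate 1 as Ptgfr was, but next highest in replicate 2, which had the least Ptgfr. Sfrp4 alone stood there at 1314, 274, 191, 471 and 468 CPM, so much of the lead of replicate 1 was Sfrp4. At 12 months the sum was 6025, 7013, 6541 and 13652 CPM, lowest in replicate 1 as Ptgfr was, and highest in replicate 4, where Ptgfr was not. The part of luteal tissue in the spread of Ptgfr and Akr1c18 was not tested.

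Markers of the ovary were present in every library, with granulosa markers summing to 900.4 CPM or more and corpus luteum markers to 6025 CPM or more. Lymph node markers were high in 3 libraries, those over 5 CPM of Cr2, which were 9 months replicates 1 and 2 and 12 months replicate 2.

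Other genes of the pathway were read from lists of synthesis, transport and breakdown, receptors and regulators of Akr1c18. Of 10 other synthesis genes 9 were tested at 12 over 3 months, and 2 rose, 2 fell and 5 did not pass, where 22.4% of all genes passed. Their median log2 change was 0.05, against 0.02 over all genes. Hpgds, which codes for the haematopoietic prostaglandin D synthase, had 139, 66.6, 120.1 and 34.1 CPM at 12 months, against 39.3, 43.2, 32.4, 41.6 and 30.8 CPM at 3 months. Of these 12 month libraries 3 lay above all those at 3 months and replicate 4 lay among them, a log2 change of 1.26 ± 0.34 (SE, edgeR adjusted p = 0.0145). Mast cells and macrophages express Hpgds. Of 7 mast cell markers 6 were tested and 5 rose, with Ms4a2 at 0 in all libraries and sums of 235 to 296 CPM at 12 months and 143 to 325 CPM at 3 months. Most of that sum was Hdc, which did not pass. Of the 5 that rose (SD over 4 and 5 libraries), Cpa3 averaged 9.07 ± 1.34 CPM at 12 months and 2.35 ± 0.858 CPM at 3 months, Cma1 averaged 11 ± 1.69 CPM at 12 months and 3.04 ± 1.05 CPM at 3 months, and Tpsb2 averaged 12.2 ± 2.35 CPM at 12 months and 2.73 ± 0.798 CPM at 3 months. Of 7 macrophage markers 4 rose, with sums of 310 to 487 CPM at 12 months and 235 to 328 CPM at 3 months and none at 0. In replicates 1 to 4 at 12 months Cpa3 stood at 9.54, 9.57, 10.1 and 7.1 CPM, and the macrophage sums at 469, 487, 352 and 310 CPM. The oviduct markers summed there to 5376, 2465, 4348 and 3419.8 CPM. The part of these cells or of oviduct tissue in the Hpgds result was not tested.

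Akr1b7, an aldo-keto reductase gene whose product can make prostaglandin F in mouse, had 0.156, 1.3, 0.297 and 0.907 CPM at 12 months, against 2.78, 0.897, 7.03, 17.7 and 6.12 CPM at 3 months. It fell by 3.36 ± 0.78 on the log2 scale (SE, edgeR adjusted p = 0.00661), with the 2 ages overlapping through replicate 2 at 3 months. Pla2g6, a phospholipase gene, rose by 0.42 ± 0.1 (SE, edgeR adjusted p = 0.00748), and Ptges3, which codes for the cytosolic synthase of prostaglandin E and also a chaperone partner, fell by 0.22 ± 0.07 on the log2 scale (SE, edgeR adjusted p = 0.037).

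Of 5 transport and breakdown genes 1 rose, with a median of 0.16, where 22.4% of all genes passed. That gene, Slco2a1, codes for the prostaglandin transporter, and it had 115, 96.3, 144 and 95 CPM at 12 months, against 60.5, 69.3, 50.5, 80.2 and 49.1 CPM at 3 months. The 2 ages did not overlap, as for 16.5% of all genes, and the log2 change was 0.86 ± 0.15 (SE, edgeR adjusted p = 0.00176). Ptgr2, a prostaglandin reductase gene, rose along the trend by 0.21 ± 0.07 in log2 over 9 months (SE, edgeR adjusted p = 0.0242). Of 7 other receptor genes 6 were tested and 1 rose at 12 months, with a median of 0.24, beside the same 22.4% of all genes. It was Ptgfrn, whose product binds the prostaglandin F receptor, at a log2 change of 0.25 ± 0.08 (SE, edgeR adjusted p = 0.026). Ptger1, another prostaglandin E receptor gene, rose along the trend by 0.33 ± 0.11 (SE, edgeR adjusted p = 0.03).

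Of 5 genes tied to the control of Akr1c18 in rodents, 2 rose at 12 months, with a median of 0.13, where 22.4% of all genes passed. Jund, a transcription factor gene, had 138, 143, 227 and 164 CPM at 12 months, against 114, 132, 124, 135 and 110.4 CPM at 3 months. Stat5a, which acts in prolactin signalling, had 93, 85.4, 115 and 98.1 CPM at 12 months, against 59.4, 68.7, 65, 77.2 and 65.6 CPM at 3 months. The ages did not overlap for either, as for 16.5% of all genes. Log2 changes were 0.45 ± 0.12 for Jund (SE, edgeR adjusted p = 0.0128) and 0.54 ± 0.14 for Stat5a (SE, edgeR adjusted p = 0.00914). Nr4a1, an orphan nuclear receptor gene induced by prostaglandin F, fell along the trend by 1.41 ± 0.45 on the log2 scale (SE, edgeR adjusted p = 0.0245). The synthase gene Prxl2b, listed under an older name, the receptor gene Ptgdr and the ovulation gene Sult1e1 were not tested because they did not pass the filter on low counts.

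**Figure D5:**
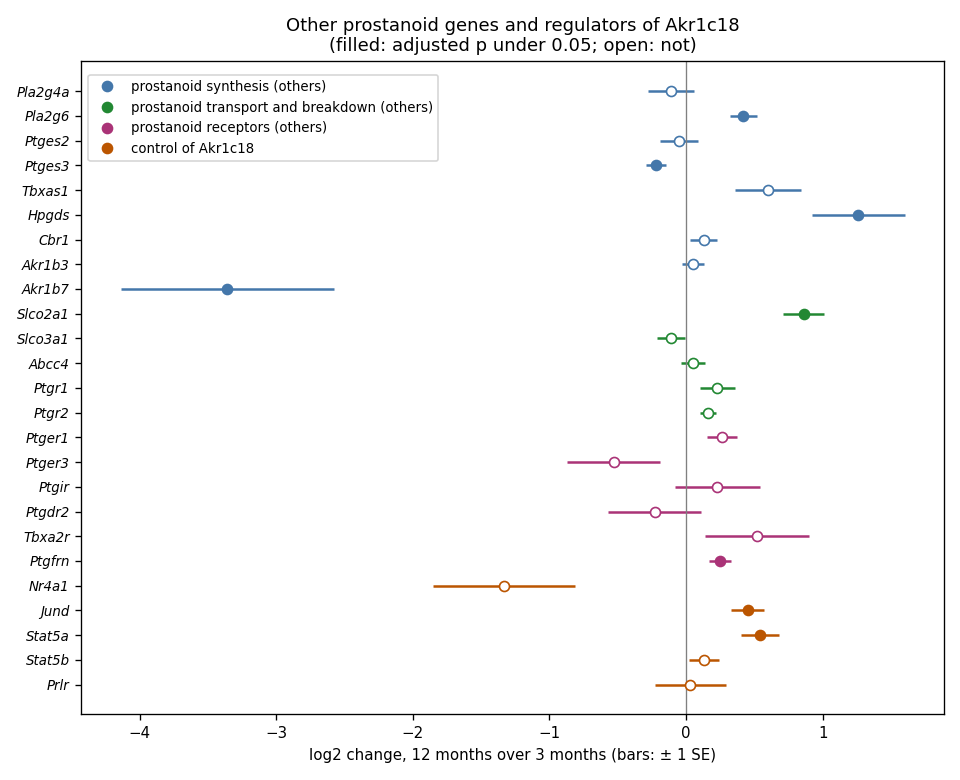
Log2 change at 12 months over 3 months for the other prostanoid genes and the regulators of Akr1c18 that were tested, with bars of 1 standard error, coloured by list and filled where the adjusted p was under 0.05. Akr1b7 stands far to the left at -3.36, and Hpgds lies farthest to the right at 1.26.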

How the data were processed

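Ovarian RNA of 19 libraries was sequenced with a library kit that keeps strand, per the labels. Per the submitters' processing notes, reads were placed on mm10. For the aligner, the counter and its use of strand, the method is not given in the sources here. The authors deposited estimated counts per gene that need not be whole, and log2 values, whose normalization method no source here gives, used only for limma-trend. Both tables hold 1 column that matches no sample, which was not used. Libraries were placed by their age label.

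The deposited estimated counts were rounded and tested with edgeR 4.0.16 (quasi-likelihood, robust, TMM, all 19 libraries in one model, minimum count 10 and minimum total 15), in R 4.3.3, with Benjamini-Hochberg adjustment over 15518 genes at 0.05. Age in months entered the trend as a number, and its slope is given over 9 months. DESeq2 1.42.0, limma 3.58.1, other filters, other scaling, covariates and leaving out libraries were alternatives. Log2 CPM used a prior count of 2. The fit was tested on simulated data. The 10 members and the pathway lists were chosen with earlier results of these data known. Named genes were the 10 members, list genes called at 12 over 3 months or along the trend, and the 3 genes of highest r for each member, leaving out predicted genes. The ovulation genes named beside Ptgs1 are the 12 tested, the 5 called at 9 over 3 months first, a choice made after their values were seen. Coordinates are from the RefSeq annotation of GRCm38.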

Additional observations from a re-analysis of the deposited data

Results flagged for a closer look

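Within an age, 1 library stood apart from the others in 4 of 40 groups of 1 gene and 1 age, by the gap to its nearest neighbour as a share of the whole range of CPM. For independent groups of normally spread values, chance gives about 1 in 20 groups, here 2 of 40. Values in CPM can be skewed to the high side, and each library flagged was the highest of its group. Ptgfr and Akr1c18 also vary together, so their groups are not independent. The 2 counts therefore cannot show whether there are more such libraries than chance gives. Ptgfr in 6 months replicate 1 had 664 CPM, where the other 4 libraries ran from 92.5 to 194 CPM, a share of 0.822. Akr1c18 in the same library had 412 CPM, where the others ran from 16.5 to 115 CPM, a share of 0.751. Akr1c18 in 3 months replicate 3 had 1472 CPM, where the others ran from 16.2 to 282 CPM, a share of 0.817. Ptgds in 3 months replicate 2 had 8.07 CPM, where the others ran from 4.31 to 5.39 CPM, a share of 0.712.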

How the results depend on the processing

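Of 920 recomputed changes of single members, 847 kept their direction and side of the threshold, 43 lost a call, 21 gained one and 9 changed direction. Members called at 12 over 3 months numbered 3, and 0 at an adjusted p under 0.01 or with the oviduct covariate. Leaving out 1 library at a time gave 0 to 3, with 0 without 12 months replicate 3 and 1 without 3 months replicates 1, 3 or 5 or 12 months replicate 1. At 9 over 3 months 2 were called, 4 by DESeq2 or limma-voom and 5 with the corpus luteum covariate (2 to 3 leaving out 1 library). Of the 15518 genes tested, edgeR called 3872 there, DESeq2 4358 and limma-voom 4031. Leaving out the libraries over 10 CPM of Alb, a setting chosen after seeing the data, keeps 1 library at 9 months, so its count is not given. For the covariates and the fits without some libraries, the share of all genes called is not given here. At 6 over 3 months 0 were called, and 1 when only these ages were fitted. Along the trend 4 were called, 1 at an adjusted p under 0.01, and 2 to 5 leaving out 1 library, with 2 without 12 months replicate 3. Among the 4 ages 2 were called, 5 by DESeq2, 4 by limma-voom, 1 at an adjusted p under 0.01, 5 with the corpus luteum covariate and 4 without the libraries over 5 CPM of Cr2. Of all 15518 genes, edgeR called 4506 there, DESeq2 5631 and limma-voom 5304. In the pathway lists 9 synthesis, 5 transport and breakdown, 6 receptor, 5 Akr1c18 control and 12 ovulation genes were tested. Genes called in these lists at 12 over 3 months numbered 11, where edgeR called 22.4% of all genes. They numbered 5 at an adjusted p under 0.01 and 4 with the oviduct covariate. Leaving out 1 library gave 6 to 13, with 7 without 12 months replicate 1 and 6 without 12 months replicate 3. Along the trend the genes called in the lists numbered 14, where edgeR called 29.5% of all genes, and 8 at an adjusted p under 0.01. Pairs past the threshold numbered 3, and 2 to 5 leaving out 1 library. They were 5 without 9 months replicates 1 or 5 or 12 months replicates 2 or 3. Log2 changes that turned direction were those of Ptgs1 at 12 over 3 months with the oviduct covariate (-0.00358), Ptgds at 12 over 3 months with that covariate (0.1), without 3 months replicate 2 (0.11) and without 12 months replicate 1 (0.08; -0.25 to 0.11 leaving out 1 library), Ptgds along the trend without 3 months replicate 2 (0.02; -0.32 to 0.02), Ptgfr at 9 over 3 months without the Cr2 libraries (0.15) and without the Alb libraries (0.17), and Ptger2 at 9 over 3 months without the Alb libraries (-0.07) and without 9 months replicate 3 (-0.01; -0.01 to 0.23). The cause was not tested. Another scaling moved the median of all genes by under 0.1 in log2. No paired analysis was possible because the labels give no replicate number shared between ages. Among the members depth limits Ptgs2 most, with 15.9 estimated counts in its lowest library and a mean of 61. Some list genes called at 12 over 3 months were thinner, with mean estimated counts of 14.9 for Edn2, 32.6 for Akr1b7 and 45.7 for Areg.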

Other observations

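Of 13 genes of the response to ovulation 12 were tested. At 12 over 3 months 2 rose and 1 fell, where 22.4% of all genes passed. The median log2 change was 0.29, against 0.02 over all genes. Areg, which codes for an epidermal growth factor-like ligand, had 7.82, 2.45, 7.64 and 3.63 CPM at 12 months, against 2.18, 2.76, 1.94, 2.33 and 2.26 CPM at 3 months, and rose by 1.23 ± 0.32 in log2 (SE, edgeR adjusted p = 0.0125). Edn2, which codes for an endothelin, averaged 1.69 ± 0.701 CPM at 12 months (SD, n = 4), against 0.731 ± 0.291 CPM at 3 months (SD, n = 5), a log2 change of 1.2 ± 0.37 (SE, edgeR adjusted p = 0.028). Rgs2, which codes for a regulator of G protein signalling, fell to 194 ± 29.7 CPM at 12 months (SD, n = 4), against 322 ± 73.5 CPM at 3 months (SD, n = 5), a log2 change of -0.73 ± 0.18 (SE, edgeR adjusted p = 0.00823). At 9 over 3 months 4 rose and 1 fell, where 25% of all genes passed, with a median of 0.7, against 0.01 over all genes. Adamts1 had the largest of these changes in absolute size, 1.68 ± 0.27 in log2 (SE, edgeR adjusted p = 0.000465).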
